A study of Arabidopsis thaliana with 36 samples.

Results

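Late anthocyanin genes and the factors that switch them on were followed across 12 Arabidopsis thaliana genotypes. The set was given as a list of 10 genes out of the 32548 in the expression tables: the enzyme genes DFR (AT5G42800), LDOX (AT4G22880), UGT79B1 (AT5G54060), UGT75C1 (AT4G14090) and 5MAT (AT3G29590), the transport gene GSTF12 (AT5G17220), the regulators PAP1 (AT1G56650), PAP2 (AT1G66390) and TT8 (AT4G09820), and the branch gene BAN (AT1G61720). The list itself uses no measured value, although it was drawn up with earlier results of these data known. Of the 10 genes, 9 had a mean value high enough to be tested, and BAN did not.

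RNA-seq had been made from whole seedlings aged 12 days, grown on MS plates at 23 °C during 16 h of light and 22 °C during 8 h of darkness, with 3 libraries for each genotype. The wild type was compared with 11 mutants in subunits of SWI/SNF complexes, ATP-driven machines that shift nucleosomes. What is known of the study places 8 of these mutants in 3 classes of complex. The BAS class, built on the ATPase BRM, was represented by brm-/- (brm), brd1-/-brd2-/-brd13-/- (brd1213) and brip1-/-brip2-/- (brip12). The SAS class, built on the ATPase SYD, was represented by syd-/- (syd), swi3d-/- (swi3d) and sys1-/-sys2-/-sys3-/- (sys123). The MAS class, built on the ATPases MINU1 and MINU2, was represented by minu1-/-minu2-/- (minu12) and pms2a-/-pms2b-/- (pms2ab). The mutants swp73b-/- (swp73b), bcl7a-/-bcl7b-/- (bcl7ab) and an3-/- (an3) were placed in no class. The labels name no allele, nor do they state that replicate libraries stem from plants grown apart. The p-values therefore measure the spread among these libraries alone, and part of it may be technical. All mutants were compared with the same 3 wild-type libraries.

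Anthocyanins are red to purple flavonoid pigments that seedlings store in the vacuole. Enzymes shared with other flavonoids make dihydroflavonols, DFR and LDOX turn these into anthocyanidins, and sugar and acyl groups are then added before the pigment is moved into the vacuole. The late genes are switched on by complexes of a MYB factor (PAP1 or PAP2), a bHLH factor (TT8, GL3 or EGL3) and the WD40 protein TTG1, which bind MYB elements and E-boxes in promoters. The repressor MYBL2 competes in these complexes.

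The promoters of 4 late genes and of TT8 are shown because they are where such complexes can bind. Each is the 250 bases before the annotated gene start in the TAIR10.1 genome, written 5′ to 3′ on the gene's strand, with capitals for matches to the E-box CANNTG (which includes the G-box CACGTG) or to the MYB-recognizing element ANCNNCC, on either strand.
TT8, chr4:6181631-6181880, plus strand: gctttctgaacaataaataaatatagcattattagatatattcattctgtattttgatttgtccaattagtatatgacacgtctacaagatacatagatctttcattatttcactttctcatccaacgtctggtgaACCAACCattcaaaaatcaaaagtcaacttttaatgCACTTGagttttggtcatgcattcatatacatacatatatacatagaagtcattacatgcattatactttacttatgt
DFR, chr5:17166033-17166282, minus strand: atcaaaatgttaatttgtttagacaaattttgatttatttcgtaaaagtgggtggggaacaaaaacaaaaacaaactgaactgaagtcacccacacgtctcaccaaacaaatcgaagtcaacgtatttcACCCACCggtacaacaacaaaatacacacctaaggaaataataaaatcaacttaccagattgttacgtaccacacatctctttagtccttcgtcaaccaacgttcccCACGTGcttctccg
LDOX, chr4:12006210-12006459, minus strand: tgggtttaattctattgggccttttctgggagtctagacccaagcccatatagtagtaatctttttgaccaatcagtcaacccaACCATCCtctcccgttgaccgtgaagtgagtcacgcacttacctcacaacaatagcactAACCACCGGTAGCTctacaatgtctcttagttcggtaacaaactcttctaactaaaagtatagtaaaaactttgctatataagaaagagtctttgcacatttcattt
UGT79B1, chr5:21938397-21938646, minus strand: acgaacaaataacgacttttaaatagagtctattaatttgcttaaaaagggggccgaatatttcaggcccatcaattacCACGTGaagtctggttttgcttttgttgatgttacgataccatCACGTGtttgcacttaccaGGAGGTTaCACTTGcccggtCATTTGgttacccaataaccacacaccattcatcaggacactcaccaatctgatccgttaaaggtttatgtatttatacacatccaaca
5MAT, chr3:11400333-11400582, minus strand: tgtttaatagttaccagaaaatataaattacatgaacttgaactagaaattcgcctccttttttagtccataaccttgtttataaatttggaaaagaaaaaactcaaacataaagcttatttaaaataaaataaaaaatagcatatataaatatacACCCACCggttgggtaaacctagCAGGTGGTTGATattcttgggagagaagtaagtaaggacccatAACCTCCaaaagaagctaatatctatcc
Matches of the MYB element and the E-box share bases in 5MAT, and neighbouring MYB matches run together in LDOX. A MYB element was found in 9 of the 10 promoters and in 48.8% of 27443 protein-coding promoters of the same length. An E-box was found in 7 of 10 (55.3% of all promoters) and a G-box in 4 of 10 (6.49%). UGT79B1 holds 2 G-boxes, whose first bases lie 171 and 128 bases before the start, and DFR holds 1, at 14 bases. These matches are a description of letters, not of binding.

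Values below are normalised reads, that is, reads scaled to a common library of 23089153 reads, at which 1 CPM (the count scaled by library size) is 23.1 reads. Library totals ranged from 21070583 to 23761910 reads, so that depth hardly differed between samples. Log2 changes are differences of log2(value + 1), given ± standard error, with limma's adjusted p over the 23297 genes tested. The threshold for a call was an adjusted p of 0.05. The libraries of each genotype correlated at 0.981 to 0.99 over these genes. Of 17 mutated genes with a known locus, 14 were called lower in their own mutant, at 0.149% to 84.3% of wild type. The genes mutated in pms2ab are not among them, since their loci were not known with certainty, so that label was not checked. BRD1 and SYD were called higher in brd1213 and syd (200% and 165% of wild type), and AN3 stood at 102% in an3. Since the position of the mutation is not given, the last 2 groups are named below as the libraries labelled syd and an3.

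PAP1, the MYB factor best known for switching on anthocyanin genes, was lowest in 2 BAS mutants and highest in swp73b. In whole seedlings a change in the number of cells making a transcript and a change in transcript per cell cannot be told apart. PAP1 was read at 34, 17.7 and 5.88 normalised reads in the wild-type libraries, at 1.14, 4.92 and 2.98 in brd1213, and with 0, 0 and 3 reads in brip12. In swp73b it stood at 96.3, 111 and 68.6. All libraries of brd1213 and brip12 lay below, and all of swp73b above, the wild-type range, although wild-type library 3 was well below the other wild-type libraries. Summed over libraries, brip12 held 3 PAP1 reads and wild type 57, a ratio 18.4-fold lower with a 95% counting interval of 5.98 to 91.7, which covers counting error only. PAP1 fell by 2.16 ± 0.63 on the log2 scale in brd1213 (limma adjusted p = 0.014) and rose by 2.46 ± 0.63 in swp73b (limma adjusted p = 0.0018). The brd1213 difference did not pass when wild-type library 1 (limma adjusted p = 0.11) or brd1213 library 1 (0.0836) was left out.

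In the SAS mutants swi3d and sys123 the PAP1 values were 21, 65 and 48.1, and 58.8, 35.6 and 62.8. The sys123 libraries all lay above the wild-type range, but the difference of 1.65 ± 0.63 was not called (limma adjusted p = 0.0509). The MAS mutants, in which the enzyme genes described below were highest, gave PAP1 values of 32.1, 12.4 and 22.8 (minu12) and 20.1, 18.5 and 35.6 (pms2ab), overlapping wild type. Their PAP1 differences were 0.41 ± 0.63 and 0.58 ± 0.63 (limma adjusted p = 0.619 and 0.444), with standard errors that leave room for changes of more than 1 log2 unit. In the order of the 12 mean levels, from swp73b at 91.9 ± 21.4 down to brip12 at 1.01 ± 1.73 (SD, n = 3), the libraries of neighbouring genotypes overlapped everywhere except between swp73b and sys123.

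PAP2, a close relative of PAP1 that also activates the pathway, was barely read: 3 reads in all in wild type and at most 8 in any mutant except brm and swp73b. The brm libraries held 14 reads and the swp73b libraries 35, which is 4.49-fold (95% counting interval 1.25 to 24.4) and 10.7-fold (3.36 to 54.2) of wild type after scaling. In swp73b the normalised reads were 3.62, 17.5 and 10.4, and in brm 3.74, 4.94 and 4.64, all above the highest wild-type library at 1.84. Both differences were called (limma adjusted p = 0.000428 in swp73b and 0.0159 in brm). The brm difference did not pass once wild-type library 1 was left out (limma adjusted p = 0.111), with a pseudocount of 0.1 (0.0772) and in DESeq2 (0.0872), and no other mutant was called for PAP2. Exact repeats elsewhere in the genome make up 4.44% of the 50-base stretches of PAP2, and reads from those stretches cannot be assigned to 1 gene.

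TT8, the bHLH partner of the MYB factors and itself a target of the complex, rose in 4 mutants. Its wild-type values of 10.4, 9.36 and 8.99 were close together. They compare with 62.3, 61.4 and 97.2 in pms2ab, 36.8, 29.9 and 29.1 in minu12, 23.3, 37.1 and 47.3 in swp73b, and 58, 21.7 and 22 in brm. None of these 12 libraries overlapped wild type. The log2 changes were 2.79 ± 0.48 in pms2ab (limma adjusted p = 9.94e-06), 1.63 ± 0.48 in minu12 (0.00526), 1.75 ± 0.48 in swp73b (0.00303) and 1.57 ± 0.48 in brm (0.00683). Without brm library 1 the brm difference was 1.11 and was not called (limma adjusted p = 0.0779). In brip12, where PAP1 and the enzyme genes fell, TT8 stood at 6.4, 7.05 and 10, a difference of −0.28 ± 0.48 (limma adjusted p = 0.721).

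**Figure D1:**
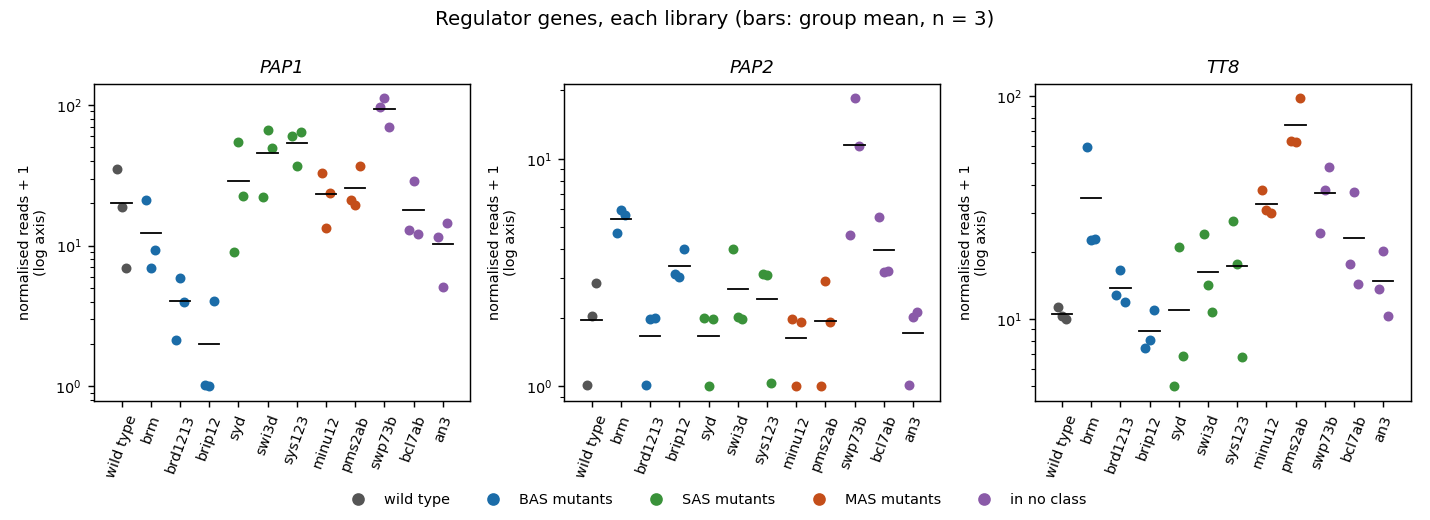
Normalised reads + 1 (log axis) of PAP1, PAP2 and TT8 in each of 36 libraries, grouped by genotype and coloured by class, with a bar at the mean of 3 libraries. PAP1 is lowest in brip12 and highest in swp73b, PAP2 is highest in swp73b, and TT8 is highest in pms2ab at 61.4 to 97.2.

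DFR, which makes leucoanthocyanidins and commits the pathway to pigment, was lower in brd1213 and brip12 and higher in minu12, pms2ab, swp73b and bcl7ab. Wild type held 258, 197 and 71.7 normalised reads. The values were 29.3, 52.1 and 18.8 in brd1213 and 4.32, 6.05 and 12 in brip12. They were 1362, 589 and 1359 in minu12, 1278, 1183 and 1756 in pms2ab, 436, 615 and 456 in swp73b, and 425, 1328 and 291 in bcl7ab. Every library of these 6 mutants lay outside the wild-type range. DFR fell by 2.29 ± 0.53 in brd1213 (limma adjusted p = 0.00219) and by 4.30 ± 0.53 in brip12 (3.91e-07). It rose by 2.73 ± 0.53 in minu12 (9.32e-05), 3.16 ± 0.53 in pms2ab (8.24e-06), 1.68 ± 0.53 in swp73b (0.00965) and 1.82 ± 0.53 in bcl7ab (0.0092).

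Not all of these DFR calls rest on every library. Without wild-type library 3, the lowest, the swp73b difference was 1.13 (limma adjusted p = 0.0944) and the bcl7ab difference 1.28 (0.102). Without bcl7ab library 2, the highest of that genotype, the difference was 1.18 (0.115). The third BAS mutant, brm, overlapped wild type at 360, 115 and 81.6, and so did the libraries labelled an3 at 177, 186 and 163. From the highest mean, 1410 ± 307 in pms2ab, to the lowest, 7.47 ± 4.05 in brip12 (SD, n = 3), libraries of neighbouring genotypes did not overlap at 3 steps: swp73b over sys123, the libraries labelled an3 over those labelled syd, and brd1213 over brip12.

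LDOX, the dioxygenase that turns leucoanthocyanidins into coloured anthocyanidins, was called in the same 6 mutants and the same directions as DFR. Wild type held 128, 91.4 and 41.5 normalised reads, against 21.8, 40.3 and 20.8 in brd1213 and 5.4, 9.07 and 15.1 in brip12. The MAS mutants stood at 994, 441 and 1008 (minu12) and 914, 990 and 1203 (pms2ab). Of these 6 libraries minu12 library 2 was the lowest, as it was for DFR. The values were 415, 499 and 479 in swp73b and 282, 737 and 226 in bcl7ab. LDOX fell by 1.54 ± 0.49 in brd1213 (limma adjusted p = 0.023), which was not called once wild-type library 1 or 2 (0.135 and 0.0713) or brd1213 library 1 or 3 (0.0802 and 0.0874) was left out. Its rises were 3.26 ± 0.49 in minu12, 3.69 ± 0.49 in pms2ab, 2.54 ± 0.49 in swp73b and 2.18 ± 0.49 in bcl7ab, with limma adjusted p from 1.66e-07 to 0.00095. Stretches with an exact copy elsewhere in the genome make up 3.99% of LDOX and 4.24% of UGT79B1.

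UGT79B1, which adds xylose to the glucose on the anthocyanin, had the largest rise among the 9 genes in pms2ab. Its wild-type libraries held 11.4, 13.5 and 11.7 normalised reads and those of pms2ab 228, 322 and 494, a log2 change of 4.66 ± 0.60 (limma adjusted p = 1.15e-07). The values were 200, 89.6 and 184 in minu12, 78.1, 111 and 81.1 in swp73b, and 68.7, 188 and 33.9 in bcl7ab. All 3 genotypes lay above wild type in every library (limma adjusted p = 1.76e-05, 0.000347 and 0.00164).

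UGT79B1 was also the only 1 of the 9 genes called in swi3d, where it stood at 56.1, 35.6 and 35.3 (1.68 ± 0.60, limma adjusted p = 0.0427). That call was lost when any of the 6 libraries compared was left out (adjusted p = 0.0657 to 0.141), without the filter on low values (0.0883) and in edgeR's quasi-likelihood test (0.0615). The brm values of 126, 27.6 and 14.1 gave 1.53 ± 0.60 (limma adjusted p = 0.0351), which was 0.66 without brm library 1 (0.385) and was lost without any wild-type library (0.0566 to 0.078). In brip12 it stood at 2.14, 4.02 and 2.01. The brip12 libraries held 8 UGT79B1 reads against 37 in wild type, a ratio 4.47-fold lower (95% counting interval 2.05 to 11.1). This fall (limma adjusted p = 0.0218) did not pass when wild-type library 2 or 3 (0.0532 and 0.0501) or brip12 library 1 or 3 (0.0689 and 0.074) was left out, nor without the filter (0.0508), with a pseudocount of 5 (0.0959) or in edgeR (0.186).

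UGT75C1, which glucosylates the 5 position of the anthocyanin, rose in minu12, pms2ab and swp73b. Wild type held 47.7, 51.9 and 44.1 normalised reads, minu12 359, 152 and 327, pms2ab 329, 411 and 651, and swp73b 220, 290 and 192. None of these mutant libraries overlapped wild type, and the log2 changes were 2.43 ± 0.46, 3.19 ± 0.46 and 2.25 ± 0.46 (limma adjusted p = 6.26e-05, 6.74e-07 and 0.00017). In brip12 it was lower at 24.3, 15.1 and 20.1 (−1.25 ± 0.46, limma adjusted p = 0.0433), a call lost without any of the 6 libraries (adjusted p = 0.0542 to 0.139), without the filter (0.0905), with a pseudocount of 5 (0.0561), in edgeR (0.105) and in DESeq2 (0.0553). In bcl7ab, at 57.1, 151 and 54.3, it was not called (0.69 ± 0.46, limma adjusted p = 0.272). Genes on the other strand overlap 13.2% and 14% of its exon bases, and 9.85% of those of GSTF12. No source used here says whether the counting used strand, so reads from such stretches may belong to either gene.

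5MAT, which adds a malonyl group to the sugar that UGT75C1 attaches, fell in brip12 and rose in minu12, pms2ab, swp73b and bcl7ab. Wild type held 18.7, 22.8 and 14.3 normalised reads and brip12 2.12, 2.02 and 2.01. The brip12 libraries held 6 reads in all against 56 in wild type, a ratio 9.02-fold lower (95% counting interval 3.9 to 25.6, limma adjusted p = 0.000742). The values were 343, 154 and 284 in minu12, 208, 219 and 382 in pms2ab, 113, 134 and 85.9 in swp73b, and 70.9, 160 and 60.8 in bcl7ab. Each of these 12 libraries lay above every wild-type library. The rises were 3.68 ± 0.57, 3.76 ± 0.57, 2.52 ± 0.57 and 2.21 ± 0.57 (limma adjusted p = 3.91e-06, 1.68e-06, 0.000545 and 0.00351).

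GSTF12, the glutathione S-transferase that carries anthocyanins towards the vacuole, was read at 53.9, 55 and 44.9 normalised reads in wild type. It stood at 6.72, 27.6 and 9.91 in brd1213, 1.11, 1.01 and 8.02 in brip12, 702, 272 and 641 in minu12, and 720, 803 and 918 in pms2ab. The BAS mutants brd1213 and brip12 lay below wild type and the MAS mutants above it in every library. GSTF12 fell by 1.96 ± 0.53 in brd1213 (limma adjusted p = 0.00741), a call lost without brd1213 library 1 (0.061). The brip12 libraries held 10 reads against 155 in wild type, a ratio 15-fold lower (95% counting interval 7.93 to 31.9, limma adjusted p = 1.27e-06). It rose by 3.26 ± 0.53 in minu12, 3.96 ± 0.53 in pms2ab, 2.40 ± 0.53 in swp73b and 1.62 ± 0.53 in bcl7ab (limma adjusted p = 7.22e-06, 1.8e-07, 0.000374 and 0.0183). The bcl7ab rise did not pass once wild-type library 3 (0.0622) or bcl7ab library 2 (0.111) was left out.

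BAN, the anthocyanidin reductase that diverts the pathway to the tannins of the seed coat, was close to absent. It had 21 reads in all, in 11 of 36 libraries, and no library exceeded 4.92 normalised reads. Wild type held no read in any library, so no fold is given. Taken alone, a library without a read leaves up to 3 reads possible, and the wild-type libraries together leave fewer per library. Of 6 other genes of the seed coat endothelium, TT1 had no read in any library, and the sum over the list lay between 28.5 and 67.1 normalised reads in all 12 genotypes. Most of that sum is AHA10, at 22.4 to 60.1 over the 36 libraries. TT2 stood at 3.94 to 7.49 in brm and at most 0.923 in wild type, a difference that was called, but TT2 passed the filter on low values only through brm, so the call supports nothing.

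**Figure D2:**
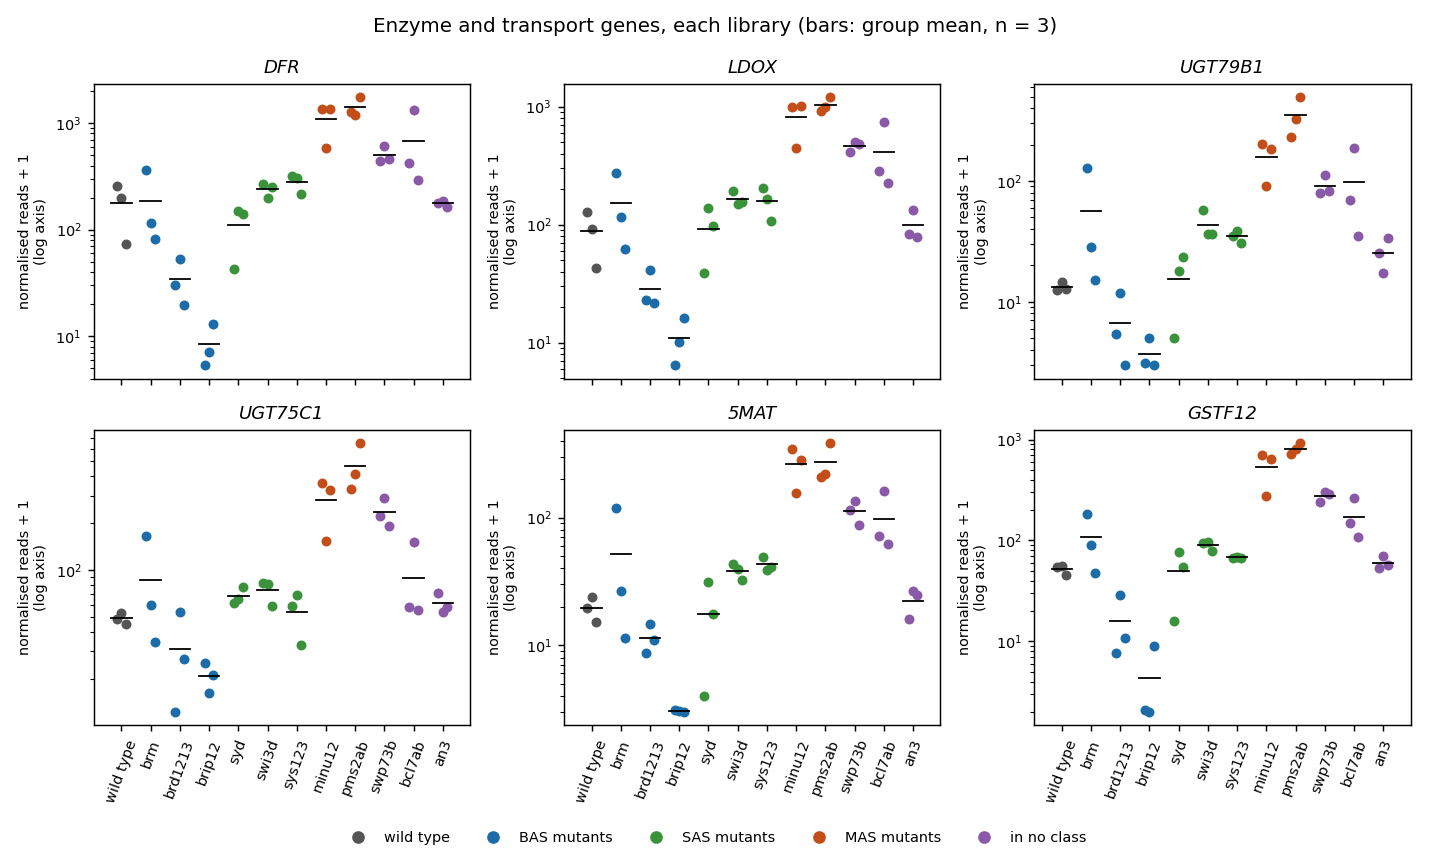
Normalised reads + 1 (log axis) of DFR, LDOX, UGT79B1, UGT75C1, 5MAT and GSTF12 in each of 36 libraries, grouped by genotype and coloured by class, with a bar at the mean of 3 libraries. In all 6 panels brip12 lies below the wild-type libraries and minu12, pms2ab and swp73b lie above them, with wide spread in brm, bcl7ab and minu12.

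Counted by mutant, the 9 tested genes gave 43 calls against wild type, 11 of them lower and 32 higher, as the plot of log2 changes shows. The lower calls all came from brd1213 and brip12. In brip12 7 of 9 genes fell, where 13.2% of all genes tested were called lower, and their median log2 change was −2.66 against −0.01 over all genes. The count was 5 in edgeR and 6 in DESeq2. In brd1213 4 of 9 fell (PAP1, DFR, LDOX and GSTF12), where 10.6% of all genes did. Without wild-type library 1 that count was 2, and without brd1213 library 1 it was 1.

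All 9 genes rose in swp73b, where 23.9% of all genes tested were called higher, with a median log2 change of 2.46. In minu12 and pms2ab 7 of 9 rose, all but PAP1 and PAP2, against 24.1% and 29% of all genes, with medians of 2.73 and 3.19. In bcl7ab 5 of 9 rose (DFR, LDOX, UGT79B1, 5MAT and GSTF12) against 16.4% of all genes, and 3 without wild-type library 3 or bcl7ab library 2.

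In brm 3 of 9 rose (PAP2, TT8 and UGT79B1), where 24.7% of all genes did, and 1 without brm library 1 or wild-type library 1. In swi3d 1 of 9 rose, where 11.2% of all genes did. None of the 9 was called in limma in the libraries labelled syd, in those labelled an3 or in sys123, where 23.3%, 10.8% and 27% of all genes were called in either direction. At an unadjusted p under 0.05 the counts there were 0, 0 and 2, in edgeR 0, 0 and 1, and in DESeq2 0, 0 and 1. For DFR the 95% interval of the difference was −1.77 to 0.40 in the libraries labelled syd, −0.90 to 1.27 in those labelled an3 and −0.25 to 1.92 in sys123, so changes of about 1 log2 unit were not detectable there.

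**Figure D3:**
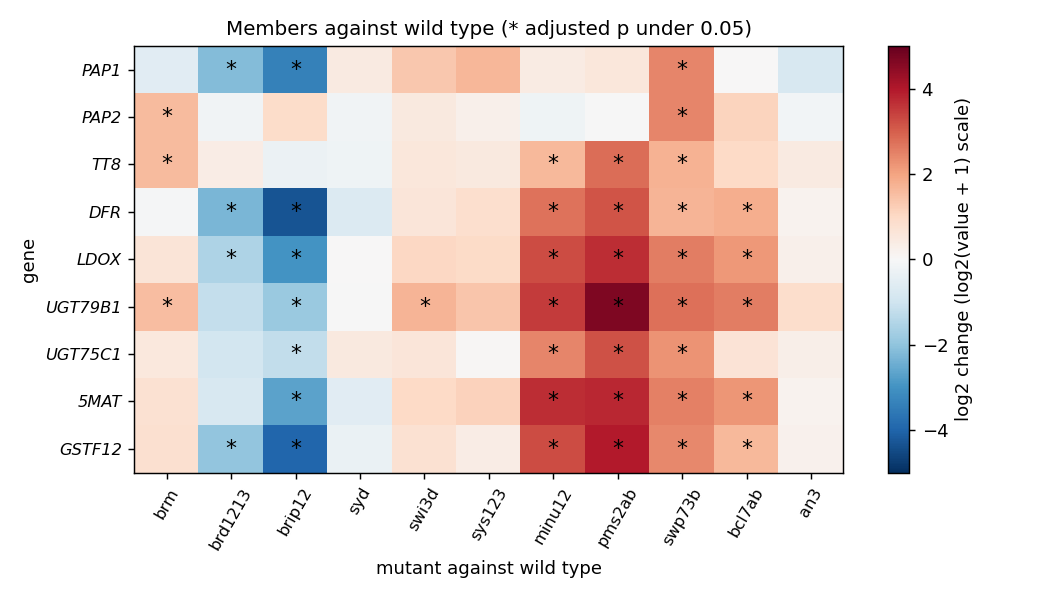
Log2 change against wild type (colour, difference of log2(value + 1)) of the 9 tested genes in 11 mutants, with an asterisk for adjusted p under 0.05. The 11 lower calls lie in brd1213 and brip12 and the 32 higher calls in brm, swi3d, minu12, pms2ab, swp73b and bcl7ab.

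Mutants of the same class were next compared with each other, which needs no wild-type library. Within the BAS class brm stood apart. All 9 genes were higher in brm than in brd1213 (19.8% of all genes tested were), by 1.19 to 2.78 on the log2 scale, and 8 of 9 were higher than in brip12 (24.3% of all genes), all but PAP2. DFR differed by 2.25 ± 0.53 and 4.26 ± 0.53 (limma adjusted p = 0.00122 and 1.5e-07) and GSTF12 by 2.78 ± 0.53 and 4.77 ± 0.53 (0.000112 and 2.01e-08). The count against brd1213 was 5 without brm library 1, the highest brm library for all 6 enzyme and transport genes, and 4 without brd1213 library 1, and 8 in edgeR and in DESeq2. PAP1, TT8 and 5MAT were lost there without the filter (limma adjusted p = 0.0913, 0.0834 and 0.0643). PAP1, UGT75C1 and 5MAT were lost in a fit of these groups alone (0.0507, 0.0889 and 0.0992). With a pseudocount of 0.1 PAP1, PAP2 and TT8 were lost (0.0864, 0.063 and 0.0545), and with 5 PAP1 (0.103). PAP1 was also lost in edgeR (0.0985) and with the replicate number as a block (0.0551), and PAP2 in DESeq2 (0.0682). Against brip12 the count was 8 with any of the 6 libraries left out.

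Between brd1213 and brip12 DFR and GSTF12 were called higher in brd1213 (2.01 ± 0.53 and 1.99 ± 0.53, limma adjusted p = 0.0343 and 0.0338), where 1.72% of all genes tested were. Neither call held in edgeR (0.305 and 0.275) or without brip12 library 1 (0.167 and 0.178) or 2 (0.0804 and 0.125) or brd1213 library 2 (0.221 and 0.262). GSTF12 was also lost without brd1213 library 3 (0.0679).

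Between the libraries labelled syd and swi3d UGT79B1 was called lower in the former (−1.71 ± 0.60, limma adjusted p = 0.0399, 10.5% of all genes lower). Between the libraries labelled syd and sys123 DFR and 5MAT were called lower in the former (−1.52 ± 0.53 and −1.71 ± 0.57, limma adjusted p = 0.0448 and 0.0343, 9.21% of all genes lower). All 3 were lost without library 1 of those labelled syd (adjusted p = 0.286, 0.312 and 0.346), in which 5MAT and UGT79B1 stood at 3.01 and 4.02 against 30.2, 16.7, 17.1 and 22.6 in the other libraries of that label, and in edgeR and DESeq2. UGT79B1 was also lost without any swi3d library (0.0635 to 0.136), and DFR and 5MAT without any sys123 library (0.0583 to 0.126).

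Between swi3d and sys123 limma called none of the 9 genes (15.5% of all genes called in either direction), nor did edgeR, DESeq2 or an unadjusted p under 0.05. The DFR difference was −0.22 with a 95% interval of −1.31 to 0.87. Between minu12 and pms2ab limma also called none (29.2% of all genes), while 1 gene passed at an unadjusted p under 0.05, 1 in edgeR and 1 in DESeq2. TT8 was lower in minu12 by the largest margin relative to its error (−1.15 ± 0.48, 95% interval −2.13 to −0.18, limma adjusted p = 0.0674), and the DFR interval was −1.51 to 0.66.

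The classes were compared by the mean over their mutants. The BAS mutants were lower than the MAS mutants for 8 of 9 genes (32.9% of all genes tested were called lower), with DFR at −5.16 ± 0.34 and GSTF12 at −5.30 ± 0.34 (limma adjusted p = 6.71e-14 and 2.73e-14). PAP2 alone was called higher in BAS (0.88 ± 0.35, limma adjusted p = 0.0286, 31.7% of all genes higher), a call lost without minu12 library 2 (0.0918) or pms2ab library 1 (0.11) and in edgeR (0.126) and DESeq2 (0.174). The BAS mutants were lower than the SAS mutants, the libraries labelled syd among them, for 7 of 9 genes, all but PAP2 and TT8 (28.8% of all genes). PAP1 differed most there, at −3.18 ± 0.36 (limma adjusted p = 1.41e-08). These class means pool brm with brd1213 and brip12, which differed from it.

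The SAS mutants were in turn lower than the MAS mutants for 7 of 9 genes, all but PAP1 and PAP2 (34.3% of all genes). PAP1 gave 0.64 ± 0.41 (limma adjusted p = 0.162) while DFR gave −2.69 ± 0.34 and 5MAT −3.20 ± 0.37 (4.39e-08 and 6.09e-09). Thus the MAS mutants exceeded the SAS mutants in enzyme genes and TT8, with no call for either MYB activator.

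A comparison of swp73b with the mean of minu12 and pms2ab was added after these values were seen. PAP1 and PAP2 were higher in swp73b (1.97 ± 0.55 and 2.58 ± 0.47, limma adjusted p = 0.00522 and 7.29e-05, 17.3% of all genes higher). DFR, UGT79B1 and GSTF12 were lower in swp73b (−1.26 ± 0.46, −1.31 ± 0.52 and −1.21 ± 0.45, limma adjusted p = 0.0313, 0.0488 and 0.0375, 18.9% of all genes lower). TT8, LDOX, UGT75C1 and 5MAT were not called (limma adjusted p = 0.409, 0.0839, 0.284 and 0.0568). The PAP1 and PAP2 calls held with each library left out. The lower calls did not: the count of all calls ranged from 2 to 7, and DFR was lost without minu12 library 1 or 3, pms2ab library 3 or swp73b library 1 or 3 (limma adjusted p = 0.0594 to 0.105). UGT79B1 and GSTF12 were lost without minu12 library 1 or 3, pms2ab library 2 or 3, or any swp73b library (0.0513 to 0.138), and UGT79B1 also with the replicate number as a block (0.0527).

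The 6 enzyme and transport genes moved together. Over the 12 genotype means of log2(value + 1), Pearson's r of their 15 pairs ran from 0.89 to 0.99, and over deviations of the 36 libraries from their genotype means from 0.66 to 0.96. These points share libraries, scaling and the wild-type group, so r is given as a description. TT8 correlated with the 6 genes at 0.76 to 0.88 between genotypes and 0.53 to 0.74 within them. PAP1 gave 0.65 to 0.77 and 0.47 to 0.72, and PAP2, with its few reads, 0.04 to 0.16 and −0.03 to 0.29. Some libraries stood away from their own genotype in most late genes at once: brm library 1 and bcl7ab library 2 (high), and minu12 library 2 and library 1 of those labelled syd (low). Wild-type library 3 did not. It was low in DFR and LDOX (71.7 and 41.5 normalised reads) but close to the other wild-type libraries in UGT79B1, UGT75C1 and GSTF12 (11.7, 44.1 and 44.9).

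**Figure D4:**
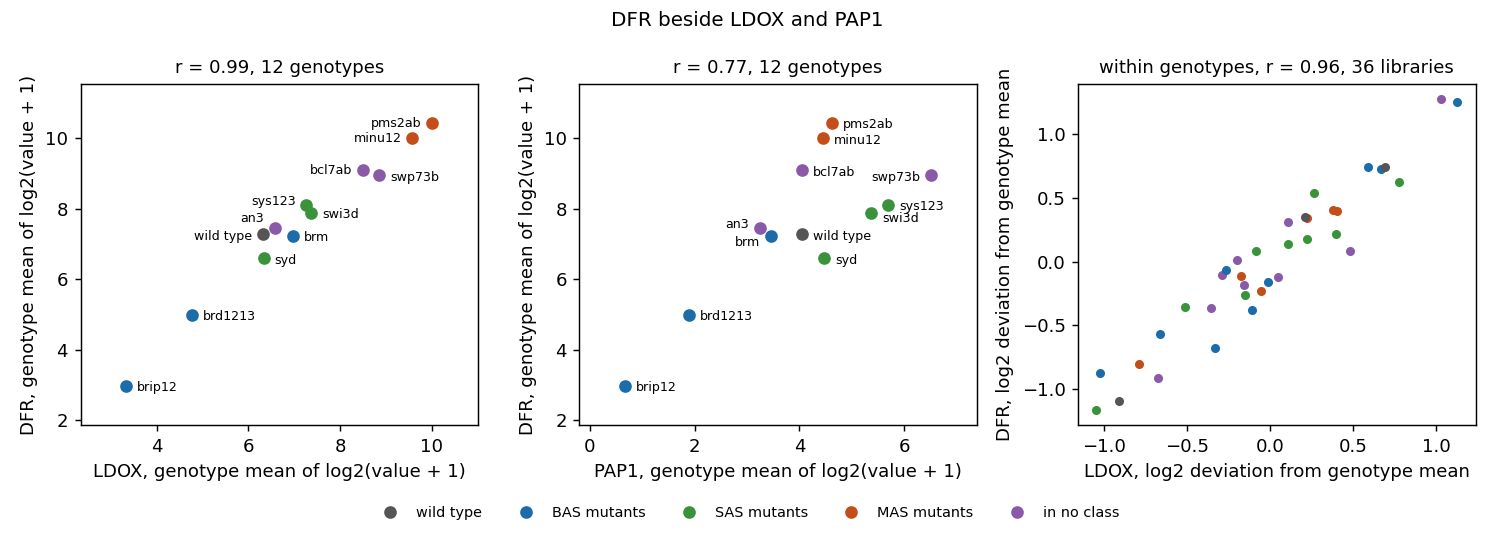
The left and middle panels plot the genotype mean of log2(value + 1) of DFR against that of LDOX and of PAP1 for 12 genotypes, and the right panel plots the log2 deviations of 36 libraries from their genotype means, DFR against LDOX. DFR and LDOX lie on 1 line in both views (r = 0.99 and 0.96), whereas in the middle panel (r = 0.77) minu12 and pms2ab lie above wild type in DFR at a like PAP1 level and swp73b has the highest PAP1 level.

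Among 19064 genes outside the pathway lists with at least 1 CPM on average, the genotype means most like those of DFR belonged to the thiolase gene KAT5 (AT5G48880, r = 0.971), the transporter-family genes UMAMIT44 (AT3G28130, 0.965) and UMAMIT46 (AT3G28070, 0.96), AT5G38980 (0.944), ZFN1 (AT3G02830, 0.942) and the early light-induced protein gene ELIP1 (AT3G22840, 0.937). KAT5 ranged from 204 ± 21.8 normalised reads in brip12 over 415 ± 53.6 in wild type to 945 ± 195 in minu12 (SD, n = 3). Most like PAP1 were AT1G29830 (0.968), BGLU47 (AT4G21760, 0.956), CYP96A12 (AT4G39510, 0.946), BGLU40 (AT1G26560, 0.946), AT2G36210 (0.945) and AT4G38340 (0.939). The 2 sets of 6 share no gene, which says little about how alike the patterns are, since so few were taken from 19064.

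Counts in the other lists of pathway and marker genes are read against the shares of all genes tested. The share called lower was 25.5% in brm, 10.6% in brd1213, 13.2% in brip12, 11.3% in the libraries labelled syd, 11% in swi3d, 12.8% in sys123, 24.8% in minu12, 29.8% in pms2ab, 25.5% in swp73b, 14.2% in bcl7ab and 5.74% in the libraries labelled an3. The share called higher was, in the same order, 24.7%, 9.23%, 11.8%, 11.9%, 11.2%, 14.2%, 24.1%, 29%, 23.9%, 16.4% and 5.03%.

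The list of 10 early genes held those for steps shared with flavonols and also FLS1, the flavonol synthase gene. Of these 10, 7 fell in brip12, 4 in brd1213, 4 in the libraries labelled syd and 3 in sys123, with none higher in these. None fell and 7, 8, 7 and 6 rose in minu12, pms2ab, swp73b and bcl7ab. In brm 3 rose and 3 fell, close to the 24.7% and 25.5% of all genes there. In swi3d 3 rose, and in the libraries labelled an3 1 rose. The median log2 change of the 10 was −0.6 in brip12, 1.08 in minu12 and 1.06 in pms2ab, against −0.01, 0 and −0.02 over all genes tested. CHS, chalcone synthase and the entry to flavonoids, stood at 1810 ± 349 normalised reads in wild type, 526 ± 45.3 in brip12, 779 ± 129 in the libraries labelled syd, 6650 ± 1070 in minu12 and 9450 ± 2910 in pms2ab (SD, n = 3). Its log2 changes there were −1.76, −1.21, 1.88 and 2.36, each ± 0.25 (limma adjusted p = 2.84e-06, 0.00044, 2.77e-07 and 2.38e-09). In the libraries labelled syd, CHS and the flavonol synthase gene FLS1 were thus called lower while no late gene was called. F3H, flavanone 3-hydroxylase, was read at 0 to 7.55 normalised reads, and 93.8% of its exon bases overlap AT3G51238 on the other strand, so its values are uncertain.

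Of 5 other genes that decorate anthocyanins, 3 rose in minu12, 4 in pms2ab, 2 in swp73b, 2 in bcl7ab, 1 in brm and 1 in swi3d, and 2 fell in brip12. The single genes called in brm and swi3d are near the 24.7% and 11.2% of all genes called higher there. SCPL10, an acyltransferase gene that adds sinapoyl groups, rose from 204 ± 33.3 in wild type to 705 ± 97.1 in minu12 and 702 ± 52.8 in pms2ab (both 1.79 ± 0.17, limma adjusted p = 9.32e-10 and 4.11e-10), and fell to 130 ± 11.7 in brip12 (−0.63 ± 0.17, limma adjusted p = 0.00653).

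Among 10 other activators, 9 of them tested, 6 were called higher and 1 lower in swp73b, 3 higher and 2 lower in brm, 2 higher in minu12, and 2 in each direction in pms2ab. In brd1213 and sys123 1 was higher and 2 were lower, in brip12 2 were lower, in bcl7ab and the libraries labelled syd 1 was lower, in swi3d 1 was higher, and in the libraries labelled an3 none was called. MYB113, a relative of PAP1 and PAP2 in the same activator group, is 1 of the 6 called higher in swp73b. It had no read in wild type and 5.44 to 27.5 normalised reads in swp73b, and no mean over 3.0 elsewhere. It passed the filter on low values only through swp73b, so its call supports nothing and no fold is given. HYH, a light-signalling bZIP factor, was called in the direction of the late genes called in brip12 (−1.69 ± 0.30), brd1213 (−1.18 ± 0.30), minu12 (0.84 ± 0.30), pms2ab (0.78 ± 0.30) and swp73b (0.79 ± 0.30), with limma adjusted p from 7.23e-05 to 0.0275. In bcl7ab, where 5 late genes rose, HYH was not called (72.9 ± 11.4 normalised reads against 71.9 ± 15.6 in wild type, limma adjusted p = 0.958). Nor was HYH called in brm, where PAP2, TT8 and UGT79B1 rose (−0.23 ± 0.30, limma adjusted p = 0.555). The same held in swi3d, where UGT79B1 rose (HYH at 57.1 ± 12.2 normalised reads). It also fell in sys123 and the libraries labelled syd (−1.57 ± 0.30 and −0.97 ± 0.30, limma adjusted p = 0.000199 and 0.0159), where no late gene was called. MYB111, which activates flavonol genes, rose in brm from 47.2 ± 5.9 to 380 ± 50.7 normalised reads (2.98 ± 0.30, limma adjusted p = 3.6e-09).

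Of 8 repressors, 4 fell in pms2ab, 3 in brm, sys123 and bcl7ab, 2 in brd1213, swi3d, swp73b and the libraries labelled syd, and 1 in minu12, brip12 and the libraries labelled an3. In pms2ab and brm 2 rose, and in brd1213, brip12, sys123, swp73b, bcl7ab and the libraries labelled an3 1 rose. MYBL2, whose protein competes with the MYB activators, changed in 8 mutants. It was lower in brm, pms2ab and swp73b (−1.41, −1.38 and −1.46, each ± 0.29) and higher in brd1213, brip12, sys123, bcl7ab and the libraries labelled an3 (0.92, 1.38, 1.08, 1.07 and 1.55, each ± 0.29), with limma adjusted p from 0.000108 to 0.0205. Its level was 1410 ± 425 normalised reads in wild type, 529 ± 91.3 in pms2ab, 530 ± 214 in swp73b, 543 ± 216 in brm and 3560 ± 295 in brip12 (SD, n = 3). Its direction was opposite to that of the late genes called in brd1213, brip12, pms2ab and swp73b. In bcl7ab both rose, and in minu12 the late genes rose while MYBL2 was not called (1850 ± 395). Nor was MYBL2 called in swi3d (1500 ± 178), where UGT79B1 rose. In brm, where MYBL2 fell, 3 of 9 genes rose (PAP2, TT8 and UGT79B1), where 24.7% of all genes did. DFR was not called there (−0.04 ± 0.53), and TT8 and UGT79B1 were lost without brm library 1 (limma adjusted p = 0.0779 and 0.385). In sys123 (2930 ± 602) and the libraries labelled an3 (4050 ± 820, the highest mean) MYBL2 rose and no late gene was called. Other repressors differed from MYBL2: LBD39 was called lower in brd1213 and brip12, as were late genes, and also in brm. Pearson's r with DFR over the 12 genotype means was −0.43 for MYBL2, −0.48 for CPC, −0.43 for LBD37 and −0.01 for LBD38. It was 0.17 for SPL9, 0.41 for MYB4, 0.71 for LBD39 and 0.76 for COP1, given as a description. The level of TTG1, the WD40 partner, ran from 543 ± 21.7 in brm to 1010 ± 108 in sys123, with 856 ± 138 in wild type.

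**Figure D5:**
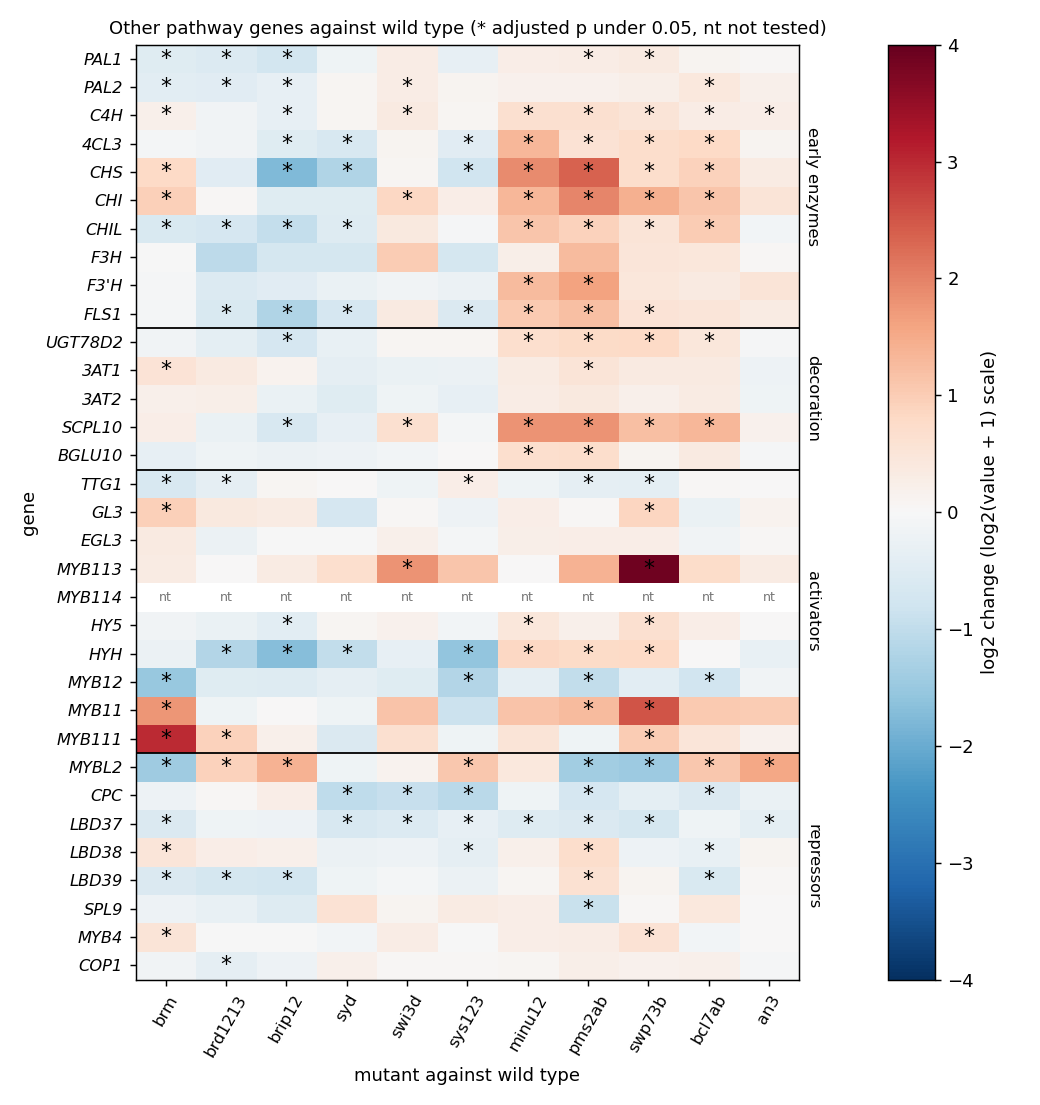
Log2 change against wild type (colour, difference of log2(value + 1)) of 33 other pathway genes in 11 mutants, grouped as early enzymes, decoration, activators and repressors, with an asterisk for adjusted p under 0.05 and nt for genes not tested. CHS is at −1.76 in brip12 and 2.36 in pms2ab, and MYBL2 is low in brm, pms2ab and swp73b.

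Markers of other tissues differed between the same genotypes. Both seed genes followed, CRA1 and OLE1, were called higher in brm, minu12, pms2ab and swp73b. Their sum was 12.5 to 15.5 normalised reads in wild type, 69.8 to 527 in brm, 90.8 to 3850 in minu12, 514 to 1560 in pms2ab, 11.4 to 3020 in swp73b, 18 to 1070 in bcl7ab and 6.43 to 11.1 in brip12. Pearson's r of CRA1 and OLE1 with DFR was 0.62 and 0.64 over the 12 genotype means and −0.09 and −0.04 over deviations of the 36 libraries from them, given as a description. In brm and pms2ab the library with the highest seed sum, library 1 and library 3, also had the highest DFR value of its mutant. In minu12 the highest seed sum was in library 2, whose DFR value was the lowest of that mutant. In swp73b library 1 the seed sum of 11.4 was below that of wild type, with DFR at 436. In bcl7ab the lowest seed sum, 18, was in library 2, whose DFR value of 1328 was the highest.

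Of 4 green tissue genes, 2 were called lower in minu12, 3 in pms2ab, 2 in swp73b and 2 in brm, and 2 were called higher in bcl7ab. Their sum ran from 542000 to 612000 in pms2ab against 717000 to 1060000 in wild type. Of 4 root genes, 3 were called higher in brip12, 2 in swp73b, 2 in swi3d, 1 in sys123 and 1 in bcl7ab, and 2 were called lower in brm and 1 in pms2ab. The sums were 2940 to 4160 in brip12, 3250 to 4810 in swp73b, 3610 to 4400 in swi3d, 3070 to 3660 in sys123, 2310 to 3230 in bcl7ab, 1630 to 1910 in brm and 1720 to 1990 in pms2ab, against 1560 to 2850 in wild type. Among the root genes, CASP1 had an r with DFR of −0.1 over the 12 genotype means and −0.62 over deviations of the 36 libraries from them. The other green tissue and root genes gave −0.46 to 0.22 and −0.18 to 0.21, again as a description. The part of tissue make-up in the late gene levels was not tested.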

How the data were processed

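Total RNA of 36 seedling libraries was sequenced as single 50-bp reads, per the labels' protocols. HISAT2, edgeR and the TAIR10 genome are named in the submitters' processing notes. No source used here gives versions, the annotation or strand use in counting. The deposited values are a normalised signal, neither whole counts nor CPM, with the form of edgeR pseudo-counts at a common library size. Whole reads were recovered by inverting that adjustment at a fitted dispersion of 0.0127. Values rebuilt from these whole reads came within 1e-04 of the deposited ones for all but 2 of 1171728 values.

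Main test: limma 3.58.1 (R 4.3.3) with a trend on log2(value + 1), 1 fit of 36 libraries, genes whose mean value was 1 or more, Benjamini-Hochberg adjustment within each comparison. The fit was also run on simulated reads with the same dispersion for all genes and changes only in genes well above the filter. That check does not cover genes with few reads or a wide spread between libraries. Alternatives were other scalings, filters and pseudocounts (0.1 and 5), fits of only the groups compared, the replicate number as a block, each library left out, edgeR 4.0.16 and DESeq2 1.42.0 on the recovered reads; scaling by library totals and swp73b against MAS were added after seeing the data. Named genes are the 10 listed, the pathway and marker lists, and the 6 genes most like DFR and the 6 most like PAP1. Genes, lists and classes were chosen with earlier results of these data known. Loci of mutated genes come from knowledge of the study. Promoters come from the RefSeq TAIR10.1 genome and annotation; the tables give no coordinates.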

Additional observations from a re-analysis of the deposited data

How the results depend on the processing

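Of 93 called values for the 9 genes, none changed direction under any alternative. Of the counts of called genes, those of minu12, pms2ab, the libraries labelled syd and an3, BAS against SAS and SAS against MAS were 7, 7, 0, 0, 7 and 7 with each library left out. The other ranges with each library left out were 1 to 4 in brm, 1 to 5 in brd1213, 5 to 6 in brip12, 0 to 0 in swi3d, 0 to 1 in sys123 (1 without wild-type library 1), 8 to 9 in swp73b and 3 to 5 in bcl7ab. They were 4 to 9 for brm against brd1213, 8 to 8 for brm against brip12, 0 to 2 for brd1213 against brip12, 0 to 3 for the libraries labelled syd against swi3d, 0 to 2 for those against sys123, 8 to 9 for BAS against MAS and 2 to 7 for swp73b against MAS.

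Other alternatives moved counts by over 1.5 times only where the counts were small; the cause was not tested. The brm count was 5 in edgeR (3 in limma). The swi3d count (1) was 0 without the filter and in edgeR and 3 in a fit of these groups alone. The sys123 count (0) was 1 with a filter of 1 CPM in 3 libraries, with a pseudocount of 5, in edgeR and in DESeq2, and 2 in a fit alone. For brd1213 against brip12 (2) it was 0 without the filter, with a pseudocount of 5 and in edgeR, and 1 in DESeq2. For the libraries labelled syd against swi3d (1) it was 2 with median-ratio scaling, the 1 CPM filter or a pseudocount of 0.1, and 0 without the filter, alone, in edgeR and in DESeq2. For those against sys123 (2) it was 0 without the filter, alone, in edgeR and in DESeq2, and 1 with library totals. For minu12 against pms2ab (0) it was 1 with a pseudocount of 5, in edgeR and in DESeq2, and 2 alone. For swp73b against MAS (5) it was 2 without the filter and 3 with a pseudocount of 0.1 or library totals.

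No label says what same-numbered libraries share. Library 1 had the lowest total of its genotype in wild type (22777662 reads) and in most mutants. Deviations of same-numbered libraries from group means correlated at −0.21 to 0.15 between wild type and mutants, over 0.1 in 4 of 33 pairs. This cannot show whether a batch goes with the number. With the replicate number as a block the total of calls against wild type was 43, as without it; the block lost PAP1 in brm against brd1213 (0.0551) and UGT79B1 in swp73b against MAS (0.0527). Scaling by library totals changed what share of the genes called were called higher. That share fell from 47.3% to 36.8% in brip12, 52.5% to 31.7% in sys123, 53.6% to 25.3% in bcl7ab and 46.7% to 32.2% in the libraries labelled an3. In swp73b it rose from 48.3% to 61.2%. With this scaling the all-gene medians were −0.16 in bcl7ab, −0.1 in sys123 and 0.1 in swp73b. The total for the 9 genes was 43 again. Few reads limit PAP2, MYB113, TT2, PAP1 in brip12 and BAN, where the pseudocount sets the size of a log2 change: PAP1 in brip12 gave −5.54 with 0.1 and −1.86 with 5.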
